A study of Mus musculus with 217 samples.

Results

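The dorsolateral striatum (DLS), the outer dorsal part of the striatum, which receives sensorimotor cortical input and is associated with habits, was compared on either side of lights on. Times are Zeitgeber times (ZT), in hours after lights on, so ZT2 lies 2 h after lights on and ZT22 lies 2 h before it. All 23 DLS libraries labelled with these times were used, out of 217 in the series, and all 11394 genes of the DLS table were tested. The 11 ZT2 libraries came from 6 male and 5 female mice, and the 12 ZT22 libraries came from 6 male and 6 female mice. Both groups were C57BL/6J mice of about 10 weeks, an inbred laboratory strain, housed on a 12:12 light and dark schedule with free food, and the labels name no altered allele and no treatment in either. Each mouse was killed at a single time, so the 23 libraries stand for 23 mice and no mouse was measured at both times. Per the labels, 1 mm punches were taken from both hemispheres and their total RNA was sequenced, and each value is therefore a mixture of all cells of a punch. Values are the deposited log2 of a normalised read count plus 1, and a difference of 1 on this scale is a doubling of the normalised count.

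The circadian clock of mammalian cells is a feedback loop of transcription. BMAL1 (encoded by Arntl) pairs with CLOCK or NPAS2 and activates genes through E-boxes, among them the Per and Cry genes, whose products inhibit that pair, and Nr1d1 and Nr1d2, whose products (REV-ERB alpha and beta) repress Arntl at ROR elements. DBP, TEF and HLF are clock-controlled factors that act at D-boxes, and mice, which are nocturnal, pass from their active phase to their rest phase when lights come on.

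Recovered reads per library ranged from 34807954 to 53822206 over the listed genes, and from 17115147 to 35566583 outside the 3 most abundant genes. The 2 mitochondrial ribosomal RNAs took 38.5% to 47.9% of the reads at ZT2 and 27.7% to 50.05% at ZT22. The female ZT22 libraries of animals 2, 3 and 4 stood apart, with 27.7% to 29.9% of reads in these RNAs and -37.3 to -32.5 on the first principal component (28.1% of the variance), against 37.7% or more and -4.99 or more in the other 20. The female ZT2 library of animal 9 stood apart on the second component (35.7, 13.3% of the variance). Counts and list medians that move by more than 1.5 times or change sign without these libraries are given both ways. Of 26 genes of medium spiny neurons, the main neuron type of the striatum, 25 were listed and none was at 0 in any library. Markers of ependymal cells were not listed (0 of 5) and 1 of 5 choroid plexus markers was, while 5 of 9 cortical neuron markers were, with a summed level of 9.98 to 14.06 at ZT2 and 10.63 to 12.68 at ZT22.

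Over all 23 libraries, few RNAs differed across lights on, and most of the called genes belonged to the clock. Between ZT2 and ZT22, 6 of 11394 genes (0.0527%) passed an adjusted p of 0.05 (limma, with a term for sex, Benjamini-Hochberg). Nr1d1, Arntl and Spred2 rose at ZT2, and Per3, Tef and Rap1gap fell. The rise of Nr1d1 was 1.52-fold and the other changes were smaller. The median absolute log2 change over all genes was 0.07, less than the median standard error of 0.08, and 16 genes differed by 1.5-fold or more. At an unadjusted p of less than 0.05, 905 genes (7.94%) differed, of which 423 (3.71% of all genes) were higher and 482 (4.23%) lower at ZT2. Fitting the recovered whole reads with voom gave 6 calls as well, with 961 genes at an unadjusted p of less than 0.05. Without the female ZT22 libraries of animals 2, 3 and 4, 7 genes were called and 4 of them were Nr1d1, Arntl, Per3 and Tef. The others lay outside the clock lists and were higher at ZT2. They were Unc13a (0.45, limma adjusted p = 0.0118), Leo1 (0.38, adjusted p = 0.0301) and Ptprn (0.25, adjusted p = 0.0301). With every library scaled to an equal sum over all genes, none of the 6 was called (adjusted p of 0.0743 for Per3, 0.392 for Nr1d1 and 0.852 for Arntl). With equal sums outside the 3 most abundant genes, Nr1d1 and Per3 were called.

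**Figure D1:**
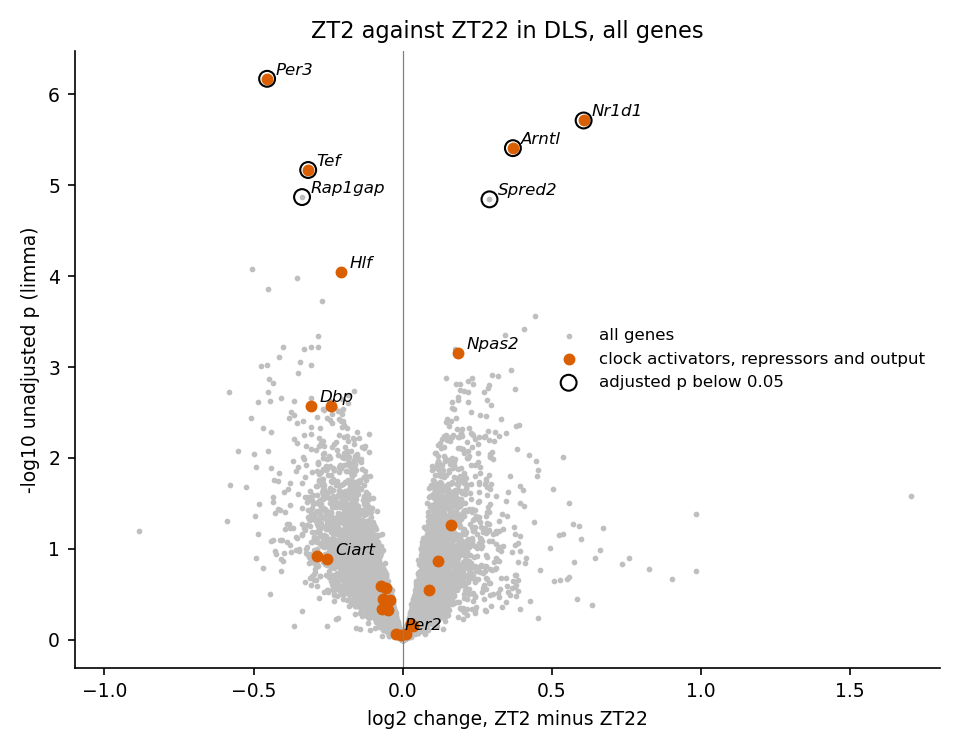
The log2 change (ZT2 minus ZT22) of each of 11394 DLS genes is plotted against -log10 of its unadjusted limma p, with clock genes in orange and the 6 genes past an adjusted p of 0.05 ringed. Per3, Tef and Rap1gap lie on the left and Nr1d1, Arntl and Spred2 on the right, well above nearly all other genes.

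The promoters of 4 of the 6 genes held letters at which clock factors are known to act. They are shown from 250 bases before to 50 bases after an annotated transcript start, as RefSeq gives them (GRCm38.p6), each on its gene's own strand, with the matched motif in capitals. The E-box (CACGTG), the ROR element core (TAGGTCA) and the D-box (TTATGTAA) were searched on both strands, and 7.15%, 2.61% and 0.938% of 32851 mouse promoter windows of this length held them. These shares are for 1 motif in 1 window. The share of all genes with any of the motifs in any window, the like of 4 of 6, was not counted. Nr1d1 and Spred2 had 1 window each and no match in it. For Arntl 1 of 2 windows and for Rap1gap 2 of 7 windows held a match, and the 1 window of Per3 and both of Tef did. One matching window of each gene is printed.
Arntl, chr7:113207261-113207560, + strand, ROR element 30 bases after the start: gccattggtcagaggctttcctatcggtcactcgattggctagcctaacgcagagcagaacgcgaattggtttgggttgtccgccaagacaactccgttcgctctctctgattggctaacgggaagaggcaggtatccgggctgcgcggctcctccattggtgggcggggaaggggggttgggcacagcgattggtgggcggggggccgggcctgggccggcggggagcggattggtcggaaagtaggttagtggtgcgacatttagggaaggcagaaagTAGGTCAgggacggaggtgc
Per3, chr4:151044616-151044915, - strand, D-boxes 205 and 158 bases before the start: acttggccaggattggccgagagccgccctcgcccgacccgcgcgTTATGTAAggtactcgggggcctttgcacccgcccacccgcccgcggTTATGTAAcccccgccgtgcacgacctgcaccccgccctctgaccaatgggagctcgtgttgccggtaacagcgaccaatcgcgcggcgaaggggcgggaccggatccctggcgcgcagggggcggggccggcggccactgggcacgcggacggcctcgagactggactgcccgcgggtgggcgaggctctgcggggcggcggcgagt
Tef, chr15:81802423-81802722, + strand, E-box 127 bases before the start: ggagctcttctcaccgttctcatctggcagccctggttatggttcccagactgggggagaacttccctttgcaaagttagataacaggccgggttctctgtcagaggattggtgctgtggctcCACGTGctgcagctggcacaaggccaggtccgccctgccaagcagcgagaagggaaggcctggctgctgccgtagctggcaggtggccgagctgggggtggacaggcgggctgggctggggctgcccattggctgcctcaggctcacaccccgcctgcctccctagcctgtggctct
Rap1gap, chr4:137664476-137664775, + strand, E-box 21 bases before the start: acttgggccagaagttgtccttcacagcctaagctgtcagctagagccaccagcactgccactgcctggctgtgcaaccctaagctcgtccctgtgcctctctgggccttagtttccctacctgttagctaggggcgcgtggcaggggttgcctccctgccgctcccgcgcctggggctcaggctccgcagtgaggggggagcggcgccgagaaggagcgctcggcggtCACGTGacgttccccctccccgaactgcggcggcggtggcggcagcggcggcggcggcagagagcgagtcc
Such a match describes the letters of these windows and not the binding of a factor.

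Arntl encodes BMAL1, the activator at the centre of the loop, and its window holds the ROR element shown above. The gene lies on chromosome 7 (113207261 to 113314126, + strand, GRCm38). Its 11 values at ZT2 had a lowest of 10.66, a median of 10.79 and a highest of 11.13, against a lowest of 10.18, a median of 10.51 and a highest of 10.64 in the 12 ZT22 libraries. Every ZT2 library thus lay above every ZT22 library, and Arntl was the only gene of the table with groups that did not overlap (0.00878% of genes). The log2 change was 0.37 ± 0.06 (SE, adjusted p = 0.0149), a 1.29-fold rise. The change was 0.39 in males and 0.35 in females, and the difference (male minus female) was 0.03 ± 0.13. Its partners differed less: Npas2 averaged 11.36 ± 0.10 at ZT2 and 11.17 ± 0.12 at ZT22 (SD, n = 11 and 12; change 0.19, 95% interval 0.09 to 0.29, adjusted p = 0.385), and Clock changed by 0.03 ± 0.06 (SE). For Rora and Rorb, whose products activate at ROR elements, the values were -0.04 ± 0.05 and -0.05 ± 0.07, and neither passed the test.

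Nr1d1 encodes REV-ERB alpha, the repressor that acts on Arntl, and had the largest rise of the called genes. It lies on chromosome 11 (98767932 to 98775333, - strand) and overlaps Thra on the opposite strand. ZT2 libraries ranged from 9.61 to 10.73 with a median of 10.35, and ZT22 libraries from 9.44 to 10.05 with a median of 9.67. The groups overlapped through 1 male and 1 female library at ZT2 that lay under the highest ZT22 library. Its log2 change was 0.61 ± 0.10 (SE, adjusted p = 0.0111), with 0.66 in males and 0.55 in females. The paralog Nr1d2, which encodes REV-ERB beta, averaged 11.13 ± 0.11 at ZT2 and 11.09 ± 0.32 at ZT22 (SD, n = 11 and 12). That difference of 0.03 had a 95% interval that included 0 and missed the test (adjusted p = 0.934).

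Per3, a period gene of the negative limb, had the smallest p of the table and fell at ZT2. It lies on chromosome 4 (151003652 to 151044665, - strand), is annotated to overlap Camta1 on the same strand, and has the D-box pair shown above. ZT2 libraries ranged from 8.08 to 8.54 with a median of 8.40, and ZT22 libraries from 8.53 to 8.95 with a median of 8.83. The groups met only at their edges, where the lowest ZT22 library, a male, lay just under the highest male and the highest female at ZT2. The log2 change was -0.45 ± 0.07 (SE, adjusted p = 0.00769), which makes the normalised count 1.37-fold lower at ZT2. The Per3 change was -0.41 in males and -0.51 in females. Per1 and Per2 did not pass the test, with changes of -0.29 ± 0.18 and -0.02 ± 0.14 (SE). Per2 varied widely inside each group, from 8.71 to 9.86 at ZT2 and from 8.60 to 9.85 at ZT22, and the 2 ranges nearly coincided.

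Tef, a D-box factor under clock control, fell, and its relatives Hlf and Dbp had values in the same direction that missed the test. Tef lies on chromosome 15 (81802421 to 81826863, + strand) and ranged from 11.98 to 12.67 at ZT2 (median 12.56), against 12.53 to 12.93 at ZT22 (median 12.87). All 6 males at ZT22 lay above all 11 ZT2 libraries, while female ZT22 libraries reached down into the ZT2 range. The log2 change of Tef was -0.32 ± 0.06 (SE, adjusted p = 0.0194). Hlf averaged 11.98 ± 0.10 at ZT2 and 12.18 ± 0.08 at ZT22, with a change of -0.21 ± 0.04 (adjusted p = 0.128). Dbp averaged 10.78 ± 0.28 at ZT2 and 11.08 ± 0.24 at ZT22, a change of -0.31 ± 0.09 (adjusted p = 0.471). The call of Tef was lost when any of 3 libraries was left out, the female ZT22 library of animal 49 (adjusted p = 0.0504), the female ZT2 library of animal 7 (0.0509) and the male ZT2 library of animal 10 (0.0573). With all 23 libraries the call of Tef was also lost without the sex term (limma adjusted p = 0.179) and without the variance trend (0.0516). The same held with equal sums outside the 3 most abundant genes (0.0519). Hlf passed only without the female ZT22 library of animal 3 (adjusted p = 0.0444).

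Outside the clock, Rap1gap fell and Spred2 rose, and both act on small GTPase signalling. Rap1gap encodes a protein that switches off the GTPase Rap1, is abundant in striatal neurons, and lies on chromosome 4 (137664726 to 137729861, + strand). It ranged from 12.55 to 13.14 at ZT2 (median 12.86) and from 13.10 to 13.50 at ZT22 (median 13.23), with a log2 change of -0.34 ± 0.06 (SE, adjusted p = 0.0272). The ranges overlapped by 1 male and 1 female ZT2 library. Its change was -0.22 in males and -0.47 in females, and the difference (male minus female) of 0.24 ± 0.12 missed the test over all genes (adjusted p = 0.181). Without the female ZT22 libraries of animals 2, 3 and 4 the change was -0.29 and the adjusted p 0.0802. Left out in turn, 10 of 23 libraries ended the call: at ZT2 males 7 and 10 and females 6, 7 and 33, and at ZT22 males 1, 48 and 50 and females 2 and 49 (adjusted p of 0.0513 to 0.076).

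Spred2, an inhibitor of Ras and ERK signalling, was the 1 member called in a list of activity-induced genes. It lies on chromosome 11 (19924375 to 20024026, + strand). ZT2 libraries ranged from 10.80 to 11.25 (median 11.01) and ZT22 libraries from 10.45 to 10.94 (median 10.78), so that the groups overlapped between 10.80 and 10.94. The log2 change of Spred2 was 0.29 ± 0.05 (SE, adjusted p = 0.0272), and 0.29 with an adjusted p of 0.0625 without the female ZT22 libraries of animals 2, 3 and 4. The call was also lost without any 1 of 13 libraries: at ZT2 males 10, 32 and 33 and females 6, 7, 31 and 33, and at ZT22 males 1, 4, 48 and 50 and females 2 and 49 (adjusted p of 0.0503 to 0.0779). Nr1d1, Arntl and Per3 remained called in all 23 of these fits.

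**Figure D2:**
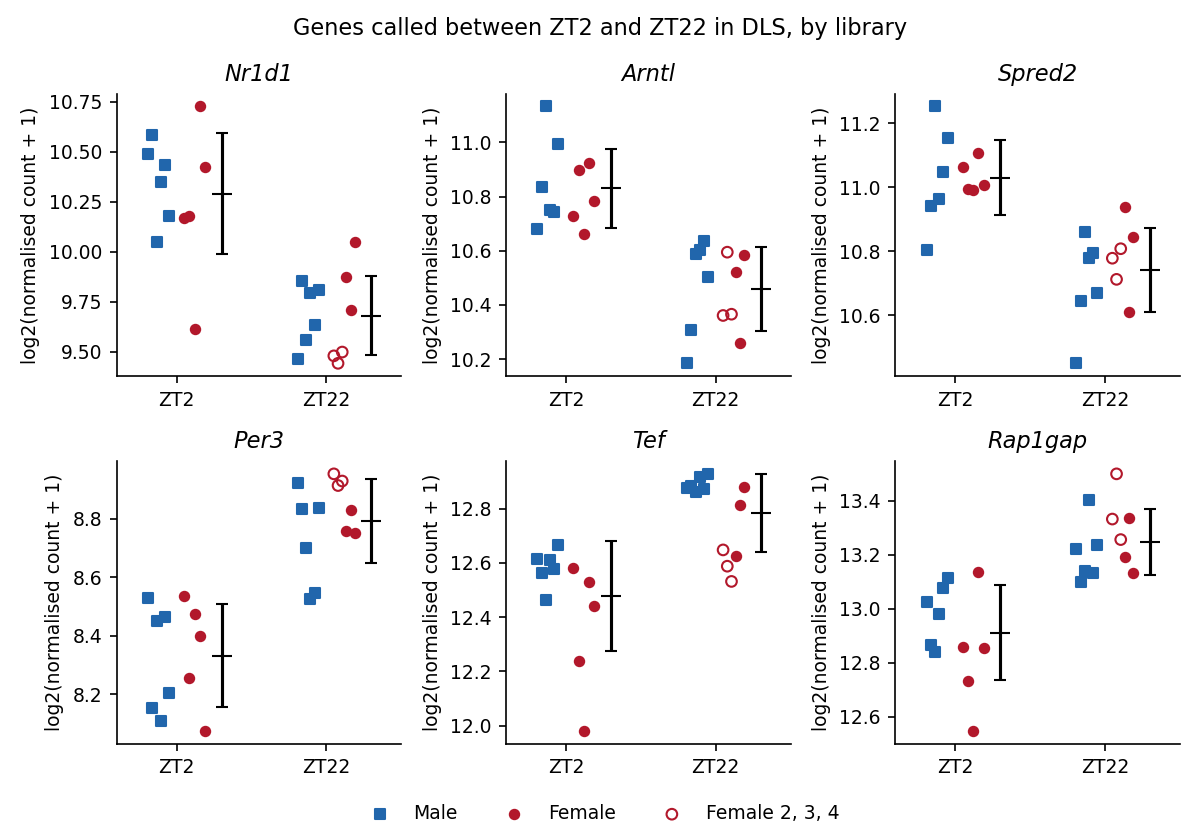
Each point is the log2(normalised count + 1) of 1 DLS library at ZT2 (left) or ZT22 (right) for a called gene, with males as blue squares, females as red circles and the female ZT22 libraries of animals 2, 3 and 4 open. Bars give the mean and SD of all libraries of a time (n = 11 and 12). Arntl is the gene whose groups are fully apart, from 10.66 upwards at ZT2 and up to 10.64 at ZT22.

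Males and females are numbered separately in the labels, and in both sexes the numbers fall into a range up to 29 and a range from 31, which the labels do not explain. From 31 upwards were 5 of 11 ZT2 and 6 of 12 ZT22 animals. Arntl had values in the same direction in both ranges, 0.44 up to 29 and 0.31 from 31 (log2, adjusted p = 0.321 and 0.0526). Nr1d1 had 0.54 and 0.65, and Per3 had -0.48 and -0.45. Of the 6 genes, Rap1gap alone differed between the ranges by more than 1.5 times, with -0.46 up to 29 and -0.20 from 31. In the range from 31, 46 genes (0.404%) were called (30 higher, 16 lower), with 4 of the 6 among them. Unc13a had the smallest adjusted p there (change 0.46, limma adjusted p = 0.000193), and Npas2 was also called (0.25, adjusted p = 0.0365). Up to 29, which holds the female ZT22 libraries of animals 2, 3 and 4, there were 0 calls by limma. In that range 14.5% of genes had an unadjusted p of less than 0.05 (13.7% from 31).

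Most genes of the clock did not pass the test between these times. Of 5 listed core activators 1 was called higher, of 11 repressors 1 higher and 1 lower, and of 8 output genes 1 lower, against 0.0263% of all genes in each direction. Their median log2 changes were 0.03, -0.02 and -0.07, beside 0.0003 over all genes, and 0.09, -0.04 and -0.08 without the female ZT22 libraries of animals 2, 3 and 4. In males these medians were 0.10, 0.03 and -0.10, and in females -0.05, -0.15 and -0.23, so the activators and repressors had opposite signs in the sexes. Without the female ZT2 library of animal 9 the activators had 0.04 and the repressors -0.01. The 12 kinases and ubiquitin factors that act on clock proteins had no call and a median of 0.05. Bhlhe41 and Bhlhe40, repressors that compete at E-boxes, had changes of -0.24 ± 0.07 and 0.16 ± 0.08 (SE), the circadian repressor Ciart -0.25 ± 0.16, Cry1 0.09 ± 0.08 and Cry2 -0.01 ± 0.05, and none of these passed the test.

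Set against the 6 times sampled, the change across lights on was a small part of the daily range for some clock genes and a large part for others. Ciart had the widest range of the named clock genes, 2.33 between its highest and lowest time means (ZT10 and ZT2), and ZT2 and ZT22 lay 11.2% of that range apart. The same share was 1.70% for Per2 (range 1.76), 8.92% for Cry1 (1.03), 21.3% for Dbp (1.40), 23.9% for Per1 (1.21) and 13.3% for Bhlhe40 (1.21). Nr1d1 and Arntl, with ranges of 1.57 and 1.27, had larger shares, given next.

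Arntl had its highest mean at ZT2 (10.83) and Nr1d1 its lowest at ZT22 (9.68), and their changes were 29.2% and 38.7% of the range. Per3, Tef and Rap1gap shared a pattern, with the highest mean at ZT14 and the lowest at ZT2. Their ZT2 values lay 50.8%, 53.7% and 59.4% of the range under ZT22. Spred2 differed from all of these, with a highest mean at ZT18 (11.08), a lowest at ZT22 (10.74) and 84.3% of its range of 0.34 between ZT22 and ZT2. Beside the uncalled clock genes with small shares above, others had large shares of narrow ranges. They were Nampt (88.4% of 0.14), Klf13 (80.3% of 0.09), Rora (75.6% of 0.06), Npas2 (49.8% of 0.37) and Hlf (49.2% of 0.42). A large share thus did not set the called genes apart, and these were chosen by the same difference. The shares rest on time means and are descriptions with no test.

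**Figure D3:**
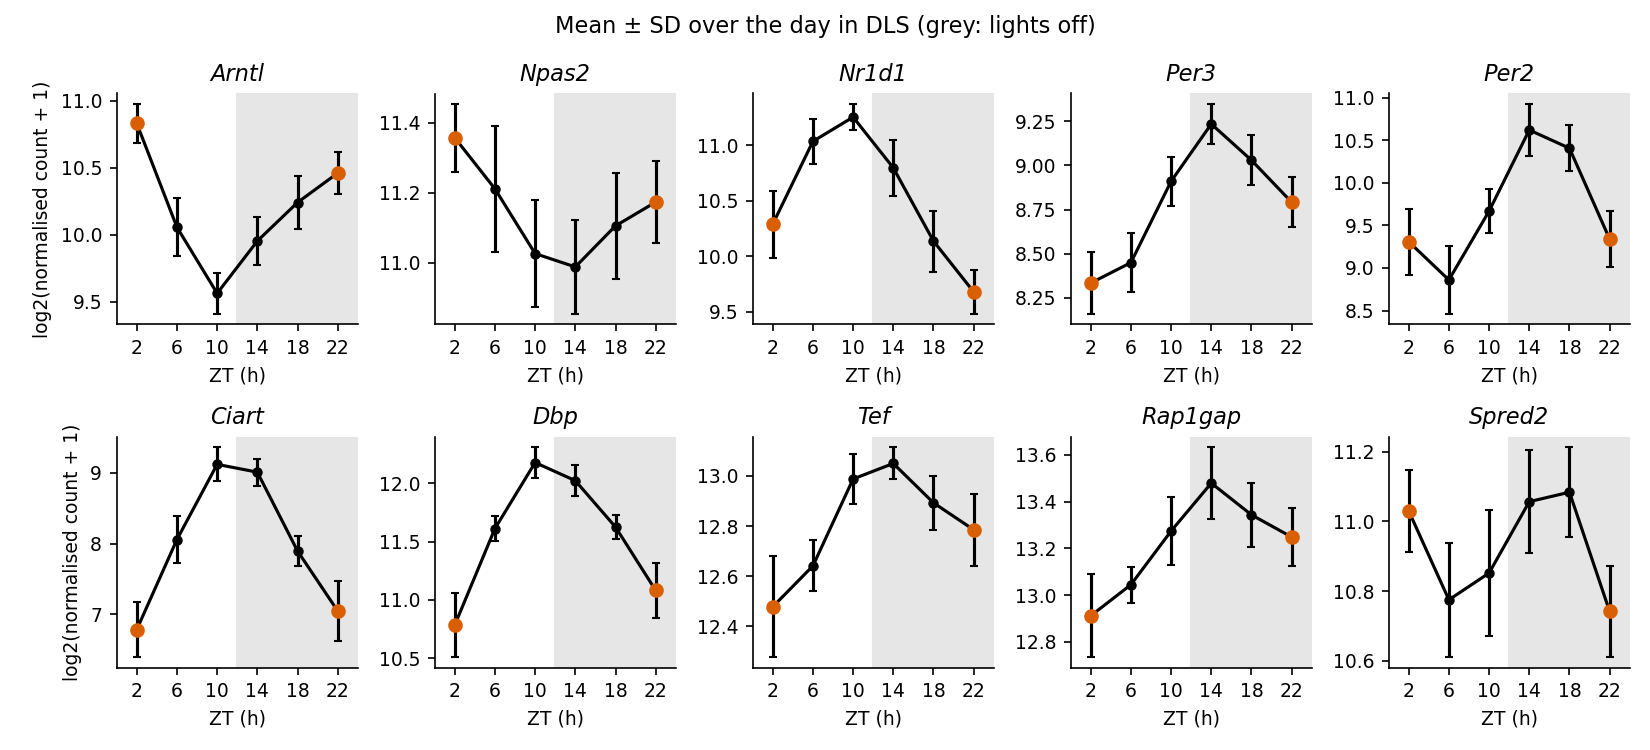
Mean and SD of log2(normalised count + 1) over 6 times of day (ZT, h) in DLS for 10 genes, with lights off in grey and ZT2 and ZT22 in orange (n = 11 and 12). Per2 and Ciart are near their low point at both times, Arntl peaks at ZT2, and Per3, Tef and Rap1gap are lowest at ZT2.

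Outside the clock, 0 members of the lists were called in the fit of time and sex over all 23 libraries, apart from Spred2. With a term for the number range added, Clk1 of the splicing regulator list was also called (-0.54, limma adjusted p = 0.0255). Among animals numbered from 31 alone, Clk1 was called at -0.67 (adjusted p = 0.0111). The 36 listed activity-induced genes, which respond to neuronal firing, had 19 values above and 17 below 0. Their median was 0.03 (0.14 in males and -0.08 in females), 0.18 without the female ZT22 libraries of animals 2, 3 and 4, and 0.01 without the female ZT2 library of animal 9. At the ends were Nr4a1 (-0.88 ± 0.46, SE) and Nr4a2 (0.90 ± 0.71). The spread inside each group was wide for these genes: Nr4a1 ran from 8.33 to 11.65 at ZT2 and from 7.77 to 12.03 at ZT22. In the number range from 31, 6 of the 36 were called, beside 0.404% of all genes: Spred2, Dusp14, Nr4a3, Fosl2 and Egr1 higher and Dusp5 lower. Genes named here and in the next paragraphs without a call were chosen after their values were seen.

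Genes of endoplasmic reticulum chaperones and of the unfolded protein response, in 1 list, were above 0 in 22 of 27 cases with a median of 0.09. That median was -0.0001 without the female ZT22 libraries of animals 2, 3 and 4. Hspa5, the main chaperone of the endoplasmic reticulum, averaged 13.11 ± 0.22 at ZT2 and 12.76 ± 0.35 at ZT22 (change 0.35 ± 0.11, SE, adjusted p = 0.495). The 29 listed cytosolic heat shock proteins and co-chaperones had a median of 0.01 (-0.01 without these 3 libraries). Without the female ZT2 library of animal 9 their median was -0.002. The small heat shock protein Cryab was lowest in that list (-0.31 ± 0.08). Targets of glucocorticoids, hormones that are low in mice at lights on, had a median of -0.04 over 17 genes (-0.08 without the 3 libraries and -0.06 without animal 9), and Tsc22d3 was lowest at -0.24 ± 0.09. No member of the 3 lists passed the test over all 23 libraries. Among animals numbered from 31, Tsc22d3 was called at -0.50 (adjusted p = 0.00815) and the heat shock gene Dnajb5 at 0.42 (adjusted p = 0.00427).

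Myelin genes lay on 1 side. All 14 oligodendrocyte markers had values below 0 (median -0.18) and so did all 10 listed markers of their precursors (median -0.14), although none was called and 5 and 2 of them had an unadjusted p of less than 0.05 (4.23% of all genes were lower at that p). Mobp, a myelin protein gene, ranged from 12.88 to 13.65 at ZT2 and from 13.17 to 14.43 at ZT22 (change -0.46 ± 0.12, adjusted p = 0.431). Bcas1, a gene of newly formed oligodendrocytes, had -0.35 ± 0.10 (adjusted p = 0.452). The summed level of the 14 markers ran from 16.18 to 16.88 at ZT2 and from 16.43 to 17.12 at ZT22. Fewer cells of a type and less RNA per cell cannot be told apart in such samples. The median of the 14 was -0.22 without the female ZT22 libraries of animals 2, 3 and 4, -0.23 in males and -0.12 in females. For the precursor markers it was -0.09 without these libraries, -0.06 in males and -0.31 in females. Bcas1 read 12.34 to 12.63 in these 3 libraries and at most 12.19 in the other ZT22 libraries.

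No member of the neuronal lists passed the test over all 23 libraries, and their medians moved with the libraries that stood apart. Among animals numbered from 31, Arpp19 was called at -0.25 and the neuropeptide gene Tac1 at -0.30 (limma, both adjusted p = 0.0149). In males alone, Arpp19 was called at -0.28 (adjusted p = 0.0408) and the interneuron marker Nos1 at 0.40 (adjusted p = 0.0485). Medium spiny neuron identity and signalling genes had 22 of 25 values below 0 with a median of -0.08, which was -0.03 without the female ZT22 libraries of animals 2, 3 and 4 and -0.01 without the female ZT2 library of animal 9. Gng7, the G protein subunit that couples their dopamine receptors, had -0.22 ± 0.09, and Ppp1r1b, which encodes DARPP-32, -0.19 ± 0.09. For 12 GABA-A receptor subunits the median was 0.05, with -0.02 in males and 0.18 in females, and it was 0.02 without either the 3 female ZT22 libraries or animal 9. For 47 potassium channels the median was -0.03, with 0.06 in males and -0.20 in females, and 0.02 without the 3 libraries. The 7 listed striatal interneuron markers had 6 values below 0 and a median of -0.15, with -0.02 in males and -0.48 in females, and 0.03 without the 3 libraries. Of 5 cortical neuron markers 4 were above 0, with a median of 0.46 (0.30 in males and 0.75 in females). That median was 0.54 without the 3 libraries and 0.31 without animal 9. Slc17a7, the cortical vesicular glutamate transporter, had 0.58 ± 0.62. The part of cortical neurons in the other values was not tested.

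**Figure D4:**
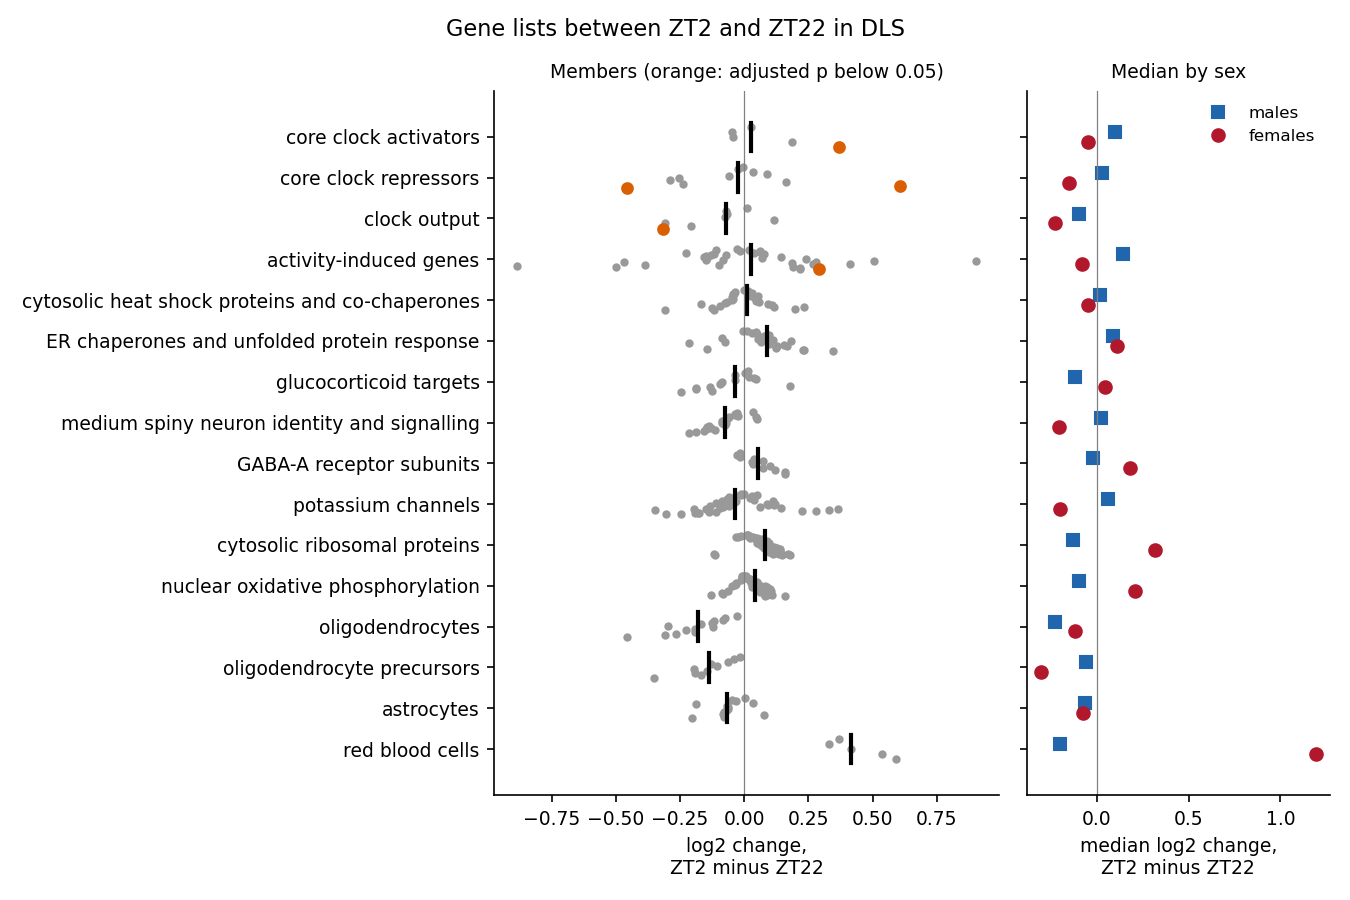
Left, the log2 change (ZT2 minus ZT22) of each listed member of 16 gene lists, with called members in orange and the list median as a black bar. Right, the list medians in males (blue squares) and females (red circles). Oligodendrocyte members all lie below 0, and the medians of red blood cell and ribosomal protein genes lie on opposite sides of 0 in the sexes.

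The change across lights on was next compared between the sexes. The difference of the change (male minus female) was called in 3 of 11394 genes (0.0263%), while 3088 (27.1%) had an unadjusted p of less than 0.05. Castor2, which encodes a GATOR2-binding protein of the mTORC1 pathway, was higher at ZT2 in males (10.50 ± 0.09 at ZT2 and 10.15 ± 0.09 at ZT22, SD, n = 6 each) and lower in females (10.39 ± 0.22 at ZT2 and 10.76 ± 0.14 at ZT22, n = 5 and 6). The groups did not overlap in males and overlapped by a small margin in females, and the difference was 0.71 ± 0.12 (SE, limma adjusted p = 0.0253). Sh3rf3, which encodes a RING finger protein with SH3 domains, had 0.30 in males and -0.51 in females, a difference of 0.81 ± 0.14. Cetn3, which encodes a centrin of the centrosome, had -0.14 in males and 0.45 in females, a difference of -0.59 ± 0.11. Both had an adjusted p of 0.0253.

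These sex differences were not stable to the choice of libraries. Leaving out any 1 of 9 libraries left 0 genes called: at ZT2 males 7 and 33 and female 33, and at ZT22 males 1, 4 and 49 and females 2, 3 and 4. Without the female ZT22 animals 2, 3 and 4 together, 0 genes were called, 8.38% of genes had an unadjusted p of less than 0.05 in place of 27.1%, and the differences were 0.60, 0.61 and -0.49 for Castor2, Sh3rf3 and Cetn3 (adjusted p = 0.54). With a term for the share of mitochondrial ribosomal RNA, 0 genes were called and 3.34% had such a p (limma, adjusted p = 0.998 for the 3 genes). Of the 78 listed ribosomal protein genes 67 (85.9%) had an unadjusted p of less than 0.05 for the difference, as had 45 of 75 nuclear genes of oxidative phosphorylation (60.0%) and 5 of 5 red blood cell genes, beside 27.1% of all genes. The median change of the ribosomal protein genes was -0.13 in males and 0.31 in females. Over both sexes it was 0.08, -0.07 without the female ZT22 animals 2, 3 and 4, and 0.05 without the female ZT2 animal 9. For the red blood cell genes, which mark blood left in a punch, it was -0.20 in males and 1.19 in females, with a summed level that ran from 8.98 at ZT22 but from 10.65 once the 3 libraries were left out. Whether sex or these 3 libraries carried the remaining differences was not tested. In males alone 49 genes (0.43%) were called between ZT2 and ZT22, of which 45 were higher at ZT2. Of the 6 genes called over both sexes, only Nr1d1 and Tef were among them. An unadjusted p of less than 0.05 was found in males for 1695 genes (14.9%). In females alone 0 were called (limma), though 2176 (19.1%) had such a p.

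The same contrast was set beside the dorsomedial striatum (DMS, 24 libraries) and the nucleus accumbens (NAc, 27 libraries), many from the same mice. In joint fits with the animal as a block, the change differed between DLS and DMS in 0 of 11365 shared genes and between DLS and NAc in 0 of 11289, with 7.59% and 4.66% of genes at an unadjusted p of less than 0.05 (limma). No change was therefore shown to be particular to DLS. Nr1d1 had 0.62 ± 0.09 in DLS and 0.56 ± 0.09 in DMS (SE, joint fit), and was the 1 gene called in DMS (0.0088%). In NAc, where 7 genes were called (0.062%), Arntl and Spred2 were among them. Arntl had 0.38 ± 0.08 in DLS and 0.36 ± 0.08 in NAc in that fit, and the difference had a 95% interval of -0.21 to 0.25. Spred2 had 0.30 ± 0.06 in DLS and 0.28 ± 0.06 in NAc, with an interval of -0.16 to 0.20.

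Between DLS and NAc, Per3 had the most unlike values of the 6 genes. Its change was -0.47 ± 0.13 in DLS and 0.16 ± 0.12 in NAc, a difference of -0.63 ± 0.18 with an unadjusted p of 0.000923 that missed the test over all genes (adjusted p = 0.739). In the fit with DMS it was -0.46 ± 0.08 in DLS and -0.28 ± 0.08 in DMS. Rap1gap had -0.33 ± 0.06 in DLS, -0.13 ± 0.06 in DMS and -0.02 ± 0.07 in NAc, and Tef had -0.31 ± 0.05 in DLS, -0.11 ± 0.04 in DMS and -0.19 ± 0.06 in NAc. Neither difference passed the test (adjusted p of 0.646 against DMS and 0.739 against NAc). The regions were filtered and normalised separately by the authors, and their levels are not compared here.

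**Figure D5:**
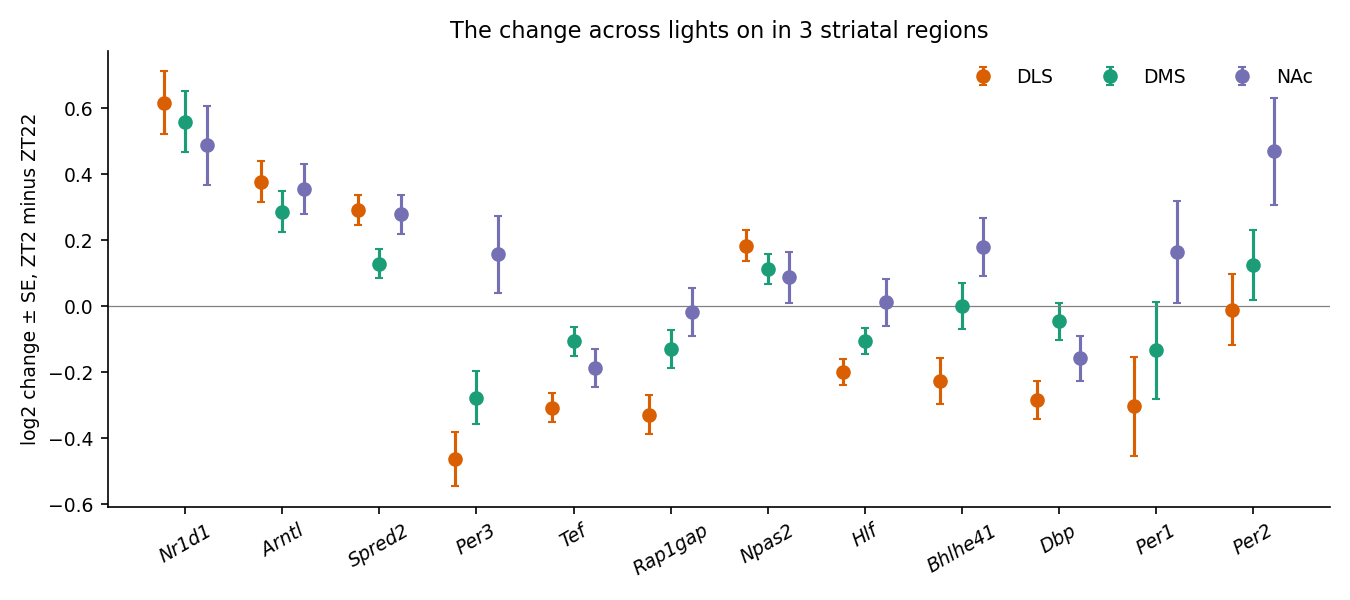
The log2 change (ZT2 minus ZT22) with its SE for the 6 called genes and 6 other clock genes in DLS and DMS (joint fit of both) and in NAc (joint fit with DLS). Nr1d1, Arntl and Spred2 lie above 0 in all 3 regions, and Per3 lies at -0.46 in DLS and 0.16 in NAc.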

How the data were processed

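Total RNA of DLS punches was sequenced as paired reads of 75 bp from stranded ultra-low-input libraries. Per the labels' protocols, reads were aligned with HISAT2 2.1.0 to GRCm38, counted with HTSeq 0.10.0 (union mode), filtered, and normalised with DESeq2, separately for each region. FastQC and Trimmomatic are named in the submitters' processing notes, which also list a human build that contradicts the labels' mouse samples. The strand setting of the counting is not given in the sources used here. How reads were counted where Nr1d1, Per3, Tef, Rap1gap or Arntl overlap another gene was not checked. The deposited values are log2 of the authors' normalised counts plus 1. In DLS 100.0% of values per library were whole multiples of the value of 1 read (tolerance 0.01 reads), which gave the depths. The labels state 11395 DLS genes and the table holds 11394. NAc values carry a further adjustment that no label records.

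The values were fitted in limma 3.58.1 (R 4.3.3, package data.table in version 1.17.8) with a variance trend, time and sex over the 23 libraries, with no added filter. The sex difference is the time by sex term. Region differences came from joint fits in which the animal was a block (correlation 0.111 with DMS and -0.056 with NAc), sex and number range within region. A fold is 2 to the power of the log2 change, so it is on the scale of the value plus 1. Adjusted p values are Benjamini-Hochberg over all genes of the table, with a threshold of 0.05. No 2 libraries agreed within sampling noise (chi-square per gene of at least 12.8), so each counted once. No molecular identifiers are named in the labels, reads are not taken as independent molecules, and the errors are those between mice. Symbols and coordinates are those of GENCODE M21 (GRCm38), matched by identifier. Plots and tables were made with matplotlib 3.10.9 and pandas 2.3.3 (numpy 2.4.6) in Python 3.11.15. The time fit and the time by sex term were tested on simulated data with independent genes and no libraries set apart. The region and voom fits were not simulated.

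Named genes were the called genes with a symbol and a mean of 6 or more, at most 15 in each direction, all members of the 3 clock lists, up to 4 called members of each other list, and the 5 of smallest p in each difference test. The members and lists were chosen with earlier results of these data known. Alternatives were other scalings, pseudocounts, filters, covariates and libraries, and fits without each library in turn.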

Additional observations from a re-analysis of the deposited data

Results flagged for a closer look

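The change across lights on differed between males and females in 3 genes by the test of the difference itself, with male minus female differences of 0.71 for Castor2, 0.81 for Sh3rf3 and -0.59 for Cetn3 (log2). None of the 3 was called without the female ZT22 libraries of animals 2, 3 and 4, or without any 1 of 9 libraries.

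In 6 of 116 groups (29 genes, each sex at each time) 1 library lay far from the others, by the gap to its nearest neighbour as a share of the group's range. Chance gives about 1 in 20 groups, so a count near this one. Hlf was low in the female ZT2 library of animal 9 (11.74, next 11.95) and in the female ZT22 library of animal 3 (11.99, next 12.19). Rora was low in the male ZT2 library of animal 7 (10.85, next 10.99), Cipc in the male ZT22 library of animal 1 (10.43, next 10.70) and Cetn3 in the male ZT22 library of animal 47 (9.80, next 10.04). Wee1 was high in the female ZT22 library of animal 50 (8.34, next 8.07).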

How the results depend on the processing

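The 6 calls became 11 with all 70 DLS libraries in 1 fit (the 6 and Cyth1, Sybu, Camkk1, Pradc1 and Cand1), 3 without the variance trend, 2 with equal sums outside the 3 most abundant genes and 0 with equal sums over all genes (limma, 586 at an unadjusted p of less than 0.05), which moved the median of all genes to -0.06. Among the 70, the male ZT6 library of animal 13 had 68.4% of its reads in ribosomal RNA-like genes and 11023532 reads outside the 3 most abundant genes. It was kept in each fit of the 70 libraries, and no fit of them was made without it. Subsets gave 0 (numbers up to 29), 46 (from 31), 49 (males) and 0 (females). Leaving out each library gave 3 to 7 calls, with 3 without the female ZT22 library of animal 49, the female ZT2 library of animal 7 or the male ZT2 library of animal 10. The other alternatives gave 5 to 7, and without the female ZT2 library of animal 9, chosen after seeing the data, 7. No alternative turned the sign of the 6.

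The 3 sex differences became 1121 genes with all 70 libraries, 0 with the mitochondrial share, 0 without the female ZT22 libraries of animals 2, 3 and 4, and 1 without the female ZT2 library of animal 9. They ranged from 0 to 1587 when each library was left out: 0 without female ZT22 2, 3 or 4, female ZT2 33, male ZT22 1, 4 or 49, or male ZT2 7 or 33; 1 without female ZT2 7 or 9; 5 or 6 without male ZT2 6 or 10 or male ZT22 48; and from 170 upwards without female ZT2 6 or 31 or female ZT22 5, 49 or 50. Region differences remained at 0 without the number range term, without the animal block, with only genes of a mean of 6 or more in both regions, and with equal sums outside the 3 most abundant genes. No region fit was made with libraries left out.

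No number occurs at both ZT2 and ZT22, but 7 numbers are shared by a male and a female of 1 time. Their correlations were -0.024 to 0.24, 4 of them over 0.1, and 9 of 14 libraries correlated best with their own number. How many would do so by chance was not counted. The replicate block, which groups libraries by this number, had a correlation of 0.196 in the time fit. With the replicate block 5 genes were called across lights on (Spred2 was lost, adjusted p = 0.0629) and 992 differed between the sexes. Depth was not varied, and genes under the authors' filter were not analysed here.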
